A study of Mus musculus with 4 samples.

Results

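The 44 genes described here supply the heart with fuel, and they were chosen by name from the 27998 genes listed in the count files. Of these, 25 belong to fatty acid oxidation and ketone use, from the regulator Ppara to Bdh1, and 17 to glucose uptake, glycolysis and lactate handling. The last 2, Ckm and Ckmt2, are the muscle-type cytosolic and mitochondrial creatine kinases, which move phosphate between ATP and creatine, and they were kept out of both fuel groups. All 44 had exactly 1 row in the files.

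Nuclei came from frozen right ventricles (RVs) of wild-type C57/BL6J pups at postnatal day 21 (P21). Pups had undergone surgery at P7, either a sham operation or a fistula between the abdominal aorta and the inferior vena cava, which loads the right heart with extra volume (RVVO). There were 2 sham and 2 RVVO libraries, called sham 1, sham 2, RVVO 1 and RVVO 2, and values given as 4 numbers follow that order. How many pups went into a library is not stated, so p-values measure only the spread between libraries. Both groups were of one strain, genotype and age. Of the members, 18 overlap another listed gene on the opposite strand, and no source used here says whether strand was counted. Among these, 1 member, Pfkm, also overlaps a listed gene on the same strand, Gm26513.

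The heart before birth runs largely on glucose and lactate, and in the weeks after birth its muscle cells turn to fatty acids. PPARα, encoded by Ppara, is a nuclear receptor that switches on genes of fatty acid use, with PGC-1α and PGC-1β (Ppargc1a, Ppargc1b) as coactivators. Fatty acids are taken up, bound, activated to acyl-CoA, carried into mitochondria by the carnitine shuttle and shortened in rounds of β-oxidation. Pyruvate dehydrogenase kinases inhibit pyruvate dehydrogenase, which turns pyruvate into acetyl-CoA in mitochondria, and so spare glucose.

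Of 53090 barcodes, 43194 passed the filters and doublet removal, 7679 to 12832 per library. Median depth per kept nucleus was 2344, 2152, 4638 and 3258 UMIs (unique molecular identifiers, each a counted transcript), so the RVVO libraries were deeper. Mitochondrial UMIs made up 1.32%, 1.22%, 0.725% and 0.852%. Xist, which is transcribed from an inactive X chromosome, had 1476 and 1487 counts per 1000000 UMIs (CPM) in the sham libraries and 0.828 and 0.646 in the RVVO libraries. The Y-linked gene Uty had 0.101, 0.0259, 322 and 318 CPM, so the X- and Y-linked genes separated the groups as the surgery did, and an effect of surgery cannot be told apart from one of sex. Pairs of libraries shared 28 to 70 barcodes, at most 0.54% of the smaller library.

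A nucleus was taken as a cardiomyocyte (CM) when Ryr2, the calcium release channel of the sarcoplasmic reticulum, made up at least 1% of its UMIs. This gave 2338, 2818, 2718 and 3751 CMs, or 20.5%, 22.0%, 35.4% and 33.3% of the kept nuclei, with a median depth of 5069, 4937, 8520 and 4906 UMIs. The limit cut through a continuous range, with 263, 200, 231 and 638 nuclei just inside it (1 to 1.2% Ryr2) and 246, 167, 155 and 482 just outside (0.8 to 1%). The median sum of 11 CM markers per nucleus was 827, 827, 813 and 746 per 10000 UMIs. Ryr2 is one of these 11 markers, so part of this sum follows from the limit itself. The sum is therefore no independent check of the label, and a sum without Ryr2 is not given. The medians of the endothelial, fibroblast and pericyte markers were between 1.04 and 4.43 on that scale, and that of the macrophage markers was 0 in all 4 libraries. Other lineages were taken from named clusters of nuclei below the limit, mainly endothelial cells (ECs), fibroblasts, macrophages and pericytes.

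The sums of CMs were not free of other cells, and this differed between the groups. Of 10 macrophage markers, 8 were higher in both RVVO libraries than in both sham libraries, with a summed level of 84.0, 52.3, 284 and 139 CPM, and 5 of 9 fibroblast markers did the same, at 323, 268, 480 and 467 CPM. No marker of the 2 lists was at 0 in any library. B cell markers (5 of 6), T and NK cell markers (5 of 8) and neutrophil markers (3 of 4) were also higher, at summed levels of at most 13.2 CPM. The pericyte markers had a lower sum in both RVVO libraries, at 491, 425, 385 and 343 CPM, with 1 of 6 markers lower in both. Of 6 glial markers 3 were lower in both, but their sum overlapped between the groups (15.04, 17.2, 25.2 and 9.96 CPM). Over all genes tested in CMs, 17.2% were above and 17.1% below sham in both RVVO libraries. The pericyte count is near that share and is not read as a result about these markers. A cluster led by the macrophage genes F13a1 and Mrc1, with a median depth 4.76 times that of its libraries, was left unnamed and held 2.52%, 0.390%, 7.58% and 1.60% of the CMs. Its share of UMIs was larger, since its CMs had a median depth of 14131, 8324, 19758 and 11238.5 UMIs. The 25 fat and ketone members there summed to 11965, 18545, 6648 and 9523 CPM. CMs held 14343063, 16614802, 29970686 and 22337530 UMIs in all. Those in named CM clusters held 12380724, 15620684, 21619540 and 19887761, so the part outside was largest in RVVO 1. The part of these cells in the results was not tested beyond values without unnamed clusters, which were added after the data had been seen. Those values are given only for the fat median, for Pdk4 and for members whose fold change then changed sign. The other CM results are given with unnamed clusters included. Fewer transcripts per nucleus and fewer nuclei that hold them cannot be told apart in such sums.

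The promoters of 3 members are shown because these were the fat members with the lowest p-values between RVVO and sham in CMs, as described further on. Pdk4 makes pyruvate dehydrogenase kinase 4. Ucp3 makes uncoupling protein 3 of the inner mitochondrial membrane. Each stretch runs from 250 bases before to 50 bases after the transcription start in RefSeq on GRCm38.p6, and capitals mark AGGTCA, the core bound by nuclear receptors such as PPARα with its partner, and ACGTG, the core bound by hypoxia-inducible factors, both searched on both strands. Pdk4 was read on the minus strand of chr6:5496229-5496528, Ucp3 on the plus strand of chr7:100472741-100473040 and Ppara on the plus strand of chr15:85735526-85735825.
Pdk4: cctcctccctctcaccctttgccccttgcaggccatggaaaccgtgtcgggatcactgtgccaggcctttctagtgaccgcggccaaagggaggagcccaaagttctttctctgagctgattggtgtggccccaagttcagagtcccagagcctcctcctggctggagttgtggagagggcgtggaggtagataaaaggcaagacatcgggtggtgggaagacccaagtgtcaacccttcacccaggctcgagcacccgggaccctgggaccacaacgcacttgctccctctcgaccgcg
Ucp3: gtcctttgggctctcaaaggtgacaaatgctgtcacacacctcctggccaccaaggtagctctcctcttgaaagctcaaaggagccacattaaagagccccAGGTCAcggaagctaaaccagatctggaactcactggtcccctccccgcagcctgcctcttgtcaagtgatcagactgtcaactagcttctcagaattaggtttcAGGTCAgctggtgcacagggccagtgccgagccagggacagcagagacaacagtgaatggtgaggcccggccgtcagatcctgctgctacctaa
Ppara: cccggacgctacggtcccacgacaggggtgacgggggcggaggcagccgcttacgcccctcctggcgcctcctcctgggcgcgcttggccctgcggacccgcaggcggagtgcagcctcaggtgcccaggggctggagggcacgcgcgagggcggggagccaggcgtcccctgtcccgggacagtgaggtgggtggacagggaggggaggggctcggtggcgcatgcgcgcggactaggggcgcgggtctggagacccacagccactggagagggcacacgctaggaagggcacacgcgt
In this window Ucp3 held AGGTCA at 2 places, and neither motif was in the other two. Over all 32851 promoters in the table, 16.3% held AGGTCA, against 6 of 28 promoters of the fat members (21.4%) and 7 of 26 of the glucose members (26.9%). The longer TCAAGGTCA, the core of estrogen-related receptors, which contains AGGTCA, was in 0.423% of all promoters and in none of the members' promoters. These covered 23 fat, 16 glucose and 2 creatine kinase genes, since Cpt1b, Ppargc1b and Slc2a4 had no promoter listed. ACGTG was in 19.6% of all promoters, in 6 of 28 of the fat members (21.4%) and in 12 of 26 of the glucose members (46.2%), among them those of Hk2, Ldha, Slc2a1, Pgk1 and Slc16a1. Promoters of one gene can overlap and share a site, as in Aldoa. By gene, 10 of 16 glucose genes held ACGTG, against 5886 of 27025 genes in all. These matches describe letters in a window and were not tied to any level below.

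CMs held more fat-group transcripts than any other lineage, and the glucose group did not set them apart. The summed level of the 25 fat and ketone members in CMs was 18008, 18941, 9091 and 14926 CPM, while in ECs it was 5016, 3678, 3380 and 4348 CPM. For the 17 glucose and lactate members the sums in CMs were 2386, 1897, 1729 and 2276 CPM, and in ECs 2466, 1478, 1857 and 2048 CPM. The ratio of the fat sum to the glucose sum, a ratio of UMIs that is read here only across lineages and libraries, was 7.55, 9.99, 5.26 and 6.56 in CMs. In ECs it was 2.03, 2.49, 1.82 and 2.12, and the means over libraries in fibroblasts, macrophages and pericytes were between 2.09 and 2.21. All 4 CM ratios were above every value of these 4 lineages. Lineages were cut from the same nuclei, so no test was made between them. The part of free CM RNA, described further on, in the sums outside CMs was not tested.

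**Figure D1:**
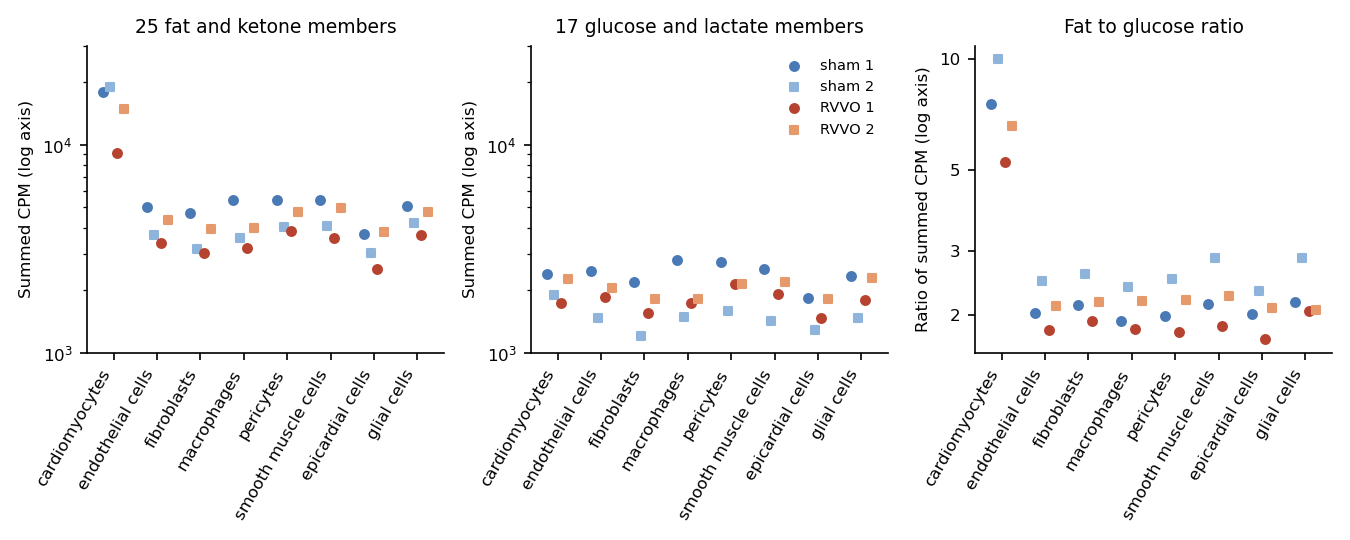
Summed CPM of the fat and ketone members, of the glucose and lactate members, and their ratio (log axes) for 8 lineages, with 1 point per library (circles, replicate 1; squares, replicate 2; blue, sham; red and orange, RVVO). CMs stand above the other lineages in the fat sum (9091 to 18941 CPM) and in the ratio (5.26 to 9.99), and within them RVVO 1 is lowest.

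Ppargc1a had the highest level of all fat members in CMs, with 10506, 11153, 4034 and 8519 CPM. Without it the sum was 7502, 7788, 5057 and 6407 CPM, still above the 4573, 3078, 3066 and 3866 CPM of ECs. The 12 enzymes of the carnitine shuttle and β-oxidation alone did not separate the lineages. Their sum was 2171, 1937, 1461 and 2077 CPM in CMs and 2680, 1753, 1803 and 2200 CPM in ECs, where the part of free CM RNA was again not tested. Adipocytes were found only in sham 2 and RVVO 2 (80 and 101 nuclei), with ratios of 4.44 and 3.02.

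The levels of single members in CMs relative to ECs ran from 30.3 times for Ppara down to 0.443 times for Gapdh. CMs had the highest mean level of the 5 main lineages for 15 of the 25 fat members, 9 of the 17 glucose members and 1 of the 2 creatine kinases, and for 21 of all 44 they were highest in each of the 4 libraries. The members far above ECs were the regulators Ppara (30.3 times), Ppargc1b (23.2) and Ppargc1a (18.6), the muscle-type carnitine palmitoyltransferase Cpt1b (17.3), the fatty acid transporter Slc27a1 (13.9), Ucp3 (12.2) and the hexokinase Hk2 (9.68). The ratio of Cpt1b rests on only 4, 4, 1 and 3 UMIs in ECs. Acacb, whose product makes the malonyl-CoA that restrains Cpt1, was 5.61 times the EC level and Pdk4 was 5.32 times.

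At the other end stood 17 members whose mean was lower in CMs than in ECs, 8 from each fuel group and Ckm. Fabp3, the fatty acid binding protein of heart muscle, was at 0.602 times the EC level, Ckm at 0.574, the muscle phosphoglycerate mutase Pgam2 at 0.456, Aldoa at 0.495 and Gapdh at 0.443. Other abundant transcripts of heart muscle also had low ratios. Of 8 such transcripts, used as a measure of free CM RNA, 5 were below the EC level, from Mb (myoglobin) at 0.447 times to Actc1 at 0.668 times, and the highest was Tnnt2 at 2.44 times. Ryr2 was at 17.4 times and Cacna1c at 34.5 times.

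These 8 transcripts summed to 22793, 13479, 17214 and 17879 CPM in ECs. Gapdh in ECs (462, 211, 285 and 410 CPM) had the same lowest and highest library, and Fabp3 (1076, 608, 559 and 1003 CPM) was also highest in sham 1. Of the members tested, 26 of 42 were highest in sham 1 in ECs, 34 of 42 in fibroblasts, 34 of 40 in macrophages and 27 of 41 in pericytes, against 18 of 43 in CMs. The part of free RNA in the values of such members outside CMs was not tested, and their levels there are not read as expression by those cells. The library with the highest value was not counted over all genes. The counts for sham 1 therefore have no background and are not read as a trait of the members.

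**Figure D2:**
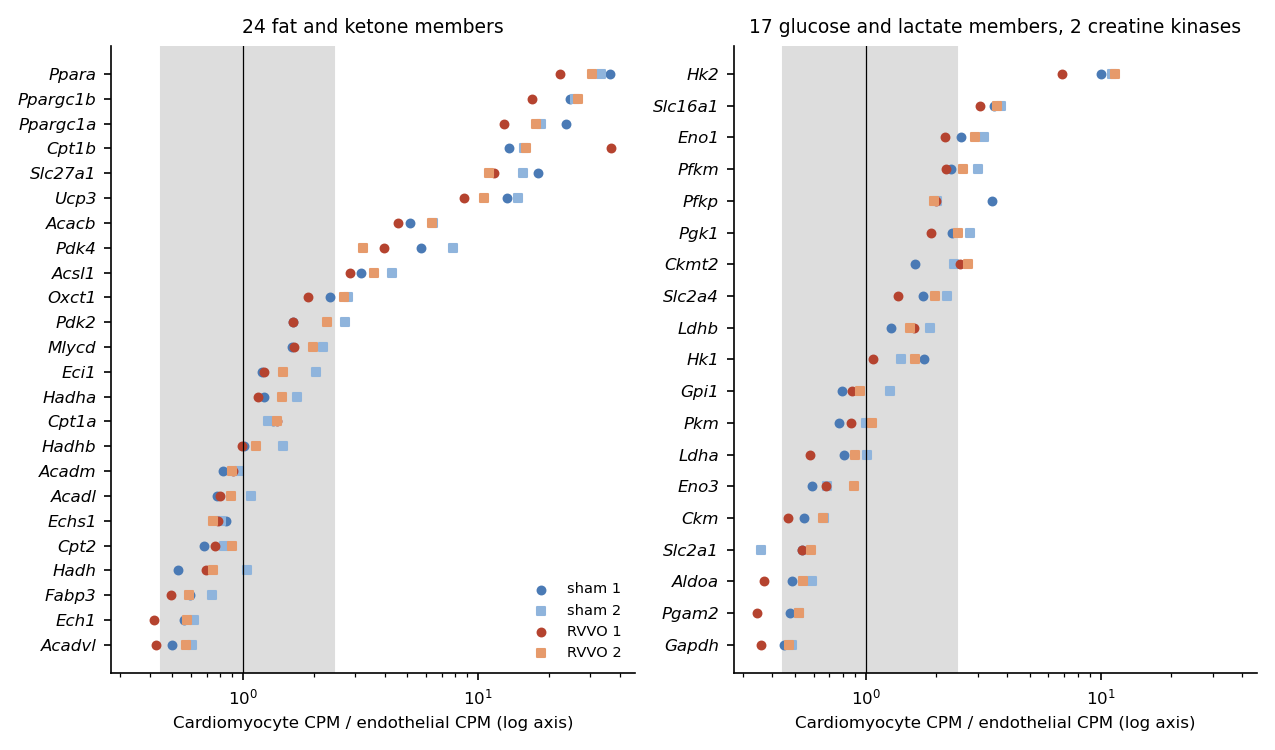
Level in CMs divided by the level in ECs (log axis) for 43 members, with 1 point per library; Bdh1 is left out because it was at or near 0. The grey band spans the ratio of mean levels for the 8 free-RNA transcripts (0.447 to 2.44), which in single libraries ran from 0.344 (Mb) to 3.68 (Tnnt2), and Ppara, Ppargc1b, Ppargc1a, Cpt1b, Slc27a1, Ucp3, Acacb and Hk2 lie above 3.68 in every library. Cpt1b had only 4, 4, 1 and 3 UMIs in ECs.

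Between RVVO and sham, 43 members passed the filter on low counts in CMs and none was called by edgeR's quasi-likelihood test at an adjusted p under 0.05. Over all 14790 genes tested, 7 were called (0.0473%), and 6 of those were Xist, Tsix and the Y-linked Uty, Ddx3y, Eif2s3y and Kdm5d. At an unadjusted p under 0.05 there were 6 members, 5 fat and 1 glucose, all with lower values in RVVO, against 846 of the 14790 genes. DESeq2 called 1 member, Pdk4, and 62 genes in all. CPM were computed over a library's total UMIs in that lineage, scaled by the TMM method, and fold changes are RVVO over sham from the edgeR fit. Their SE was worked back from the test, as the absolute log2 fold change over the square root of the F statistic. Values within single CM clusters are instead CPM over the plain total of that cluster and library. Whether groups overlap within a cluster was therefore not judged on the TMM scale.

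Among the fat members 22 of 24 tested had a fitted log2 fold change below 0, with a median of -0.23. The 17 glucose members had 12 below 0 and a median of -0.06, and the median of all genes was 0.01. In 7 fat and 3 glucose members both RVVO libraries were below both sham libraries, and in 1 fat member, Cpt1a, both were above. Over all genes tested 17.1% were below and 17.2% above in this sense. The fat median leaned on RVVO 1, since it was -0.03 without that library and -0.46 without RVVO 2. In the CMs of named clusters alone it was -0.12, and with each nucleus thinned to 1000 UMIs it was -0.13. Mitochondrial UMIs in CMs were 0.574%, 0.469%, 0.349% and 0.418%, and with nuclei limited to under 1% the fat median was -0.24.

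**Figure D3:**
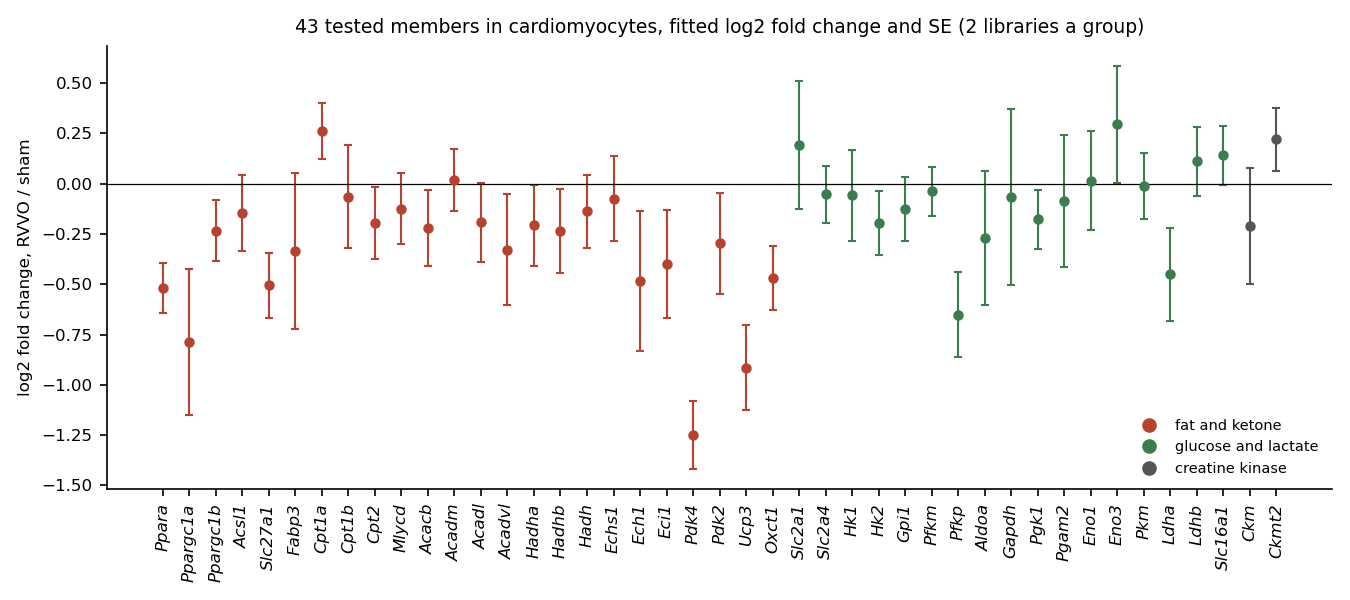
Fitted log2 fold change (RVVO over sham) with its SE for the 43 members tested in CMs, ordered by role, from 2 libraries a group. Pdk4 (-1.25) and Ucp3 (-0.91) lie lowest, most fat members (red) lie just under 0, and the glucose members (green) scatter around 0 except Pfkp (-0.65) and Ldha (-0.45).

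Of the 3 regulators, Ppara (chromosome 15, 85734983 to 85802819) had 684, 707, 514 and 458 CPM in CMs. Both RVVO libraries were lower, with a log2 fold change of -0.52 ± 0.13 (SE; adjusted p = 0.826 by edgeR). Ppargc1a (chromosome 5, 51454250 to 51567726) also had both RVVO libraries below sham, but these 2 libraries differed more from each other than RVVO 2 did from sham. Its log2 fold change was -0.79 ± 0.36 (adjusted p = 0.897), and it was -0.34 without RVVO 1 and -1.44 without RVVO 2. Of the 3 main CM clusters described further on, Ppargc1a was lower in both RVVO libraries in the first 2 and overlapped in the third (7553, 11844, 5520 and 9556 CPM). Ppargc1b had 787, 874, 636 and 776 CPM, lower in RVVO by a margin smaller than the gap between replicates (log2 fold change -0.23 ± 0.15, adjusted p = 0.918 by edgeR).

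Fatty acids enter the cell and are activated through 3 members. Slc27a1, a fatty acid transport protein that also activates its cargo, had 357, 463, 283 and 295 CPM. Both RVVO libraries lay below sham (log2 fold change -0.50 ± 0.16, adjusted p = 0.842 by edgeR), but in the third CM cluster the groups overlapped (297, 388, 311 and 306 CPM). Acsl1, the main long-chain acyl-CoA synthetase of the heart, had 425, 511, 362 and 483 CPM and Fabp3 had 640, 450, 275 and 590 CPM. In both genes the groups overlapped and RVVO 1 was lowest.

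The carnitine shuttle carries activated fatty acids into mitochondria. Cpt1a, the form of the entry enzyme found in liver and in the fetal heart, had 65.0, 73.9, 81.3 and 85.4 CPM. It was the only fat member higher in both RVVO libraries (log2 fold change 0.26 ± 0.14, adjusted p = 0.906 by edgeR). Cpt1b, the muscle form, had 6.80, 8.51, 6.46 and 8.20 CPM, with overlapping groups. Its detected level was low, since after each nucleus was thinned to 1000 UMIs it was found in 0.571% to 0.926% of CMs, against 0% to 0.0993% of ECs. Cpt2, Mlycd and Acacb overlapped between the groups, with log2 fold changes of -0.19, -0.12 and -0.22.

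Of the β-oxidation enzymes, the 9 members all overlapped between the groups, and their log2 fold changes ran from -0.48 (Ech1) to 0.02 (Acadm). Acadm, the medium-chain acyl-CoA dehydrogenase, had 203, 175, 174 and 208 CPM. Hadha, the α subunit of the trifunctional protein, had 411, 400, 286 and 416 CPM, and Hadhb, its β subunit, had 321, 309, 216 and 320 CPM. Only RVVO 1 was apart in the last 2 genes, and RVVO 2 was at the level of the sham libraries. The summed level of the 12 shuttle and β-oxidation enzymes overlapped between the groups, with a log2 difference of -0.24 and an exact permutation p of 0.667 (two-sided). With 2 against 2 libraries such a test cannot go below 0.33.

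The largest difference was in a pyruvate dehydrogenase kinase. Pdk4 (chromosome 6, 5483351 to 5496309, minus strand) had 1059, 1341, 473 and 537 CPM in CMs. Both RVVO libraries were at less than the level of either sham library, and the gap between the groups exceeded that within them. The log2 fold change was -1.25 ± 0.17, the lowest unadjusted p of all members, and did not pass over all genes (adjusted p = 0.785 by edgeR). DESeq2 gave an adjusted p of 2.07e-05, and edgeR without the filter on low counts gave 0.0336. Without any single library the log2 fold change stayed between -1.41 and -1.07, with adjusted p from 0.543 to 0.997. In the CMs of named clusters it was -1.13 (adjusted p = 0.321).

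Pdk4 was lower in RVVO within each of the 3 main CM clusters (5419, 3071 and 1976 CMs), which took different shares of each library. In the first, with 5.22%, 53.6%, 72.5% and 48.4% of the CMs, it had 1211, 1314, 554 and 573 CPM. In the second, with 74.8%, 21.3%, 5.48% and 15.3%, it had 1069, 1241, 513 and 440 CPM, and in the third 883, 1226, 565 and 676 CPM. At 1000 UMIs per nucleus, 59.6%, 65.5%, 38.1% and 38.5% of CMs had a Pdk4 UMI, against 17.98%, 15.5%, 10.4% and 15.4% of ECs. Without thinning the shares of CMs were 88.5%, 90.7%, 86.1% and 78.4%.

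Ucp3 (chromosome 7, 100472990 to 100486432) had 136, 168, 67.7 and 94.0 CPM, and both RVVO libraries were again below sham. Its log2 fold change was -0.91 ± 0.21 (adjusted p = 0.785 by edgeR), and it was lower in RVVO in each of the 3 clusters. Pdk2, another kinase of the same complex, had 62.9, 82.2, 47.4 and 70.8 CPM, with RVVO 2 between the sham libraries.

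Ketone use was covered by 2 members. Oxct1, the enzyme that activates acetoacetate so that ketone bodies can be burned, had 539, 429, 369 and 330 CPM. The RVVO libraries were lower (log2 fold change -0.47 ± 0.16, adjusted p = 0.842 by edgeR), but the value was -0.30 without sham 1, and in 2 of the 3 CM clusters the groups overlapped. Bdh1, β-hydroxybutyrate dehydrogenase, was at 0.143, 0, 0.126 and 0.219 CPM and was not tested.

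**Figure D4:**
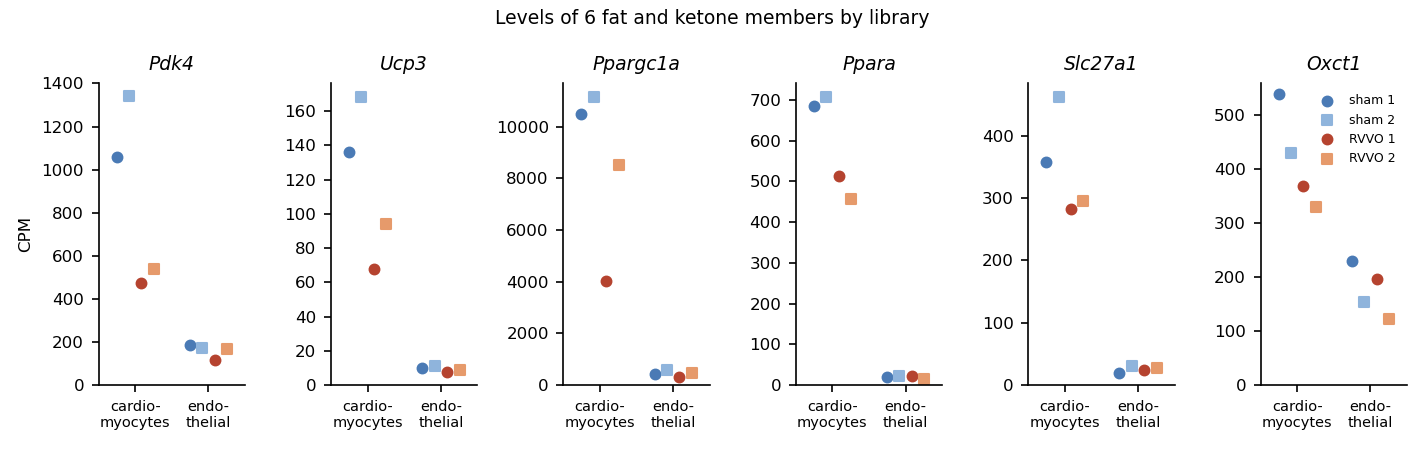
CPM of 6 fat and ketone members in CMs and ECs, with 1 point per library (circles, replicate 1; squares, replicate 2; blue, sham; red and orange, RVVO) and axes from 0. In CMs both RVVO points lie below both sham points in all 6 genes, most clearly in Pdk4 (473 and 537 against 1059 and 1341 CPM), and in ECs all 6 have lower levels.

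On the glucose side, the transporters and hexokinases had overlapping groups. Slc2a4, the insulin-responsive glucose transporter GLUT4, had 41.8, 39.5, 38.1 and 40.3 CPM, and the groups overlapped within a narrow range (log2 fold change -0.05 ± 0.14). Slc2a1, the basal transporter GLUT1, was at 2.03 to 2.81 CPM. Hk2 had 305, 270, 224 and 278 CPM and Hk1 had 122, 102.8, 86.7 and 129 CPM. In both hexokinases, which trap glucose as its phosphate, RVVO 1 was lowest and the groups overlapped.

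Phosphofructokinase commits sugar to glycolysis, and its muscle form Pfkm was among the steadiest members, at 126, 124, 118 and 126 CPM. The platelet form Pfkp had 203, 138, 111 and 106 CPM, and both RVVO libraries lay below sham (log2 fold change -0.65 ± 0.21, adjusted p = 0.842 by edgeR). The sham libraries differed from each other by more than sham 2 did from either RVVO library, and without sham 1 the log2 fold change was -0.35. Pfkp was lower in RVVO in only 1 of the 3 CM clusters.

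In the steps after phosphofructokinase, Gapdh had 208, 102, 102 and 194 CPM, and Aldoa and Pgam2 likewise had sham 1 highest and overlapping groups. Pkm, pyruvate kinase, had 147, 120, 123 and 142 CPM. Pgk1, which lies on the X chromosome, had 49.5, 52.2, 42.3 and 47.7 CPM (log2 fold change -0.18 ± 0.15). Both RVVO libraries were below both sham libraries, by a margin smaller than the gap between the RVVO libraries. Ldha, the lactate dehydrogenase subunit that favours lactate formation, had 130, 115, 71.1 and 108 CPM (log2 fold change -0.45 ± 0.23, adjusted p = 0.905 by edgeR). RVVO 1 was lowest, and the value was -0.17 without it and -0.80 without RVVO 2. Ldhb, the heart subunit, had 290, 255, 256 and 333 CPM, and the lactate carrier Slc16a1 had 101, 105, 104 and 124 CPM, with overlapping groups in both.

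The creatine kinases did not separate the groups either. Ckmt2, in the mitochondria, had 885, 717, 990 and 878 CPM (log2 fold change 0.22 ± 0.16), and Ckm had 294, 177, 172 and 234 CPM (-0.21 ± 0.29).

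As sums, the fat group in CMs was lower in both RVVO libraries, with a mean of 18475 ± 660 CPM in sham and 12009 ± 4126 CPM in RVVO (SD, n = 2; log2 difference -0.66, exact two-sided permutation p = 0.33). The 2 RVVO libraries differed from each other by nearly as much as from sham, and the log2 difference was -0.31 without RVVO 1 and -1.02 without RVVO 2. Without Ppargc1a it was -0.43. The glucose group overlapped, at 2141 ± 346 and 2002 ± 387 CPM (exact p = 0.667). The ratio of the groups was 8.77 ± 1.73 in sham and 5.91 ± 0.920 in RVVO, with no overlap (log2 difference -0.56, exact p = 0.33). It was lower in both RVVO libraries than in both sham libraries in the first CM cluster (8.64, 10.9, 5.36 and 7.22) and in the second (7.69, 8.85, 4.39 and 5.63), but not in the third (4.85, 8.27, 4.55 and 6.002).

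Of 7 isozyme pairs in CMs, 5 had shares that did not overlap between the groups. No share over other gene pairs was computed, so this count has no background and is not read as a result about the pairs. Pfkm made up 38.2%, 47.4%, 51.4% and 54.3% of the UMIs of Pfkm and Pfkp, and Ldhb 69.1%, 68.8%, 78.2% and 75.4% of those of Ldhb and Ldha. The share of Cpt1b with Cpt1a was 9.48%, 10.3%, 7.37% and 8.76%, and the share of Ppargc1a with Ppargc1b was 93.0%, 92.7%, 86.4% and 91.7%. For Slc2a4 with Slc2a1 it was 94.2%, 95.1%, 93.9% and 93.5%, with only 36, 32, 78 and 64 Slc2a1 UMIs. Each of these 5 had an exact two-sided permutation p of 0.33, the lowest possible for 2 against 2 libraries. The shares of Pfkm and Ldhb were higher in RVVO, and the other 3 were lower. The levels of Pfkm and Ldhb themselves overlapped between the groups, while those of Pfkp and Ldha were lower in both RVVO libraries. Hk2 with Hk1 and Eno3 with Eno1 overlapped.

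Across lineages the shares of some pairs differed more. That of Pfkm did not, at 47.8% ± 7.0 in CMs and 45.5% ± 5.3 in ECs (SD, n = 4). Hk2 made up 71.1% ± 1.9 of the hexokinase pair in CMs (SD, n = 4), 63.5% ± 6.4 in macrophages and 52.9% ± 6.2 in fibroblasts. In ECs it was 26.9% ± 3.4 and in pericytes 27.1% ± 7.0, and these neighbours did not differ beyond their spread. Ldhb was 72.9% ± 4.7 of its pair in CMs, 58.4% ± 4.2 in ECs and 66.6% ± 4.1 in pericytes. Eno3, the muscle enolase, took a smaller share in CMs (69.3% ± 6.1) than in ECs (89.6% ± 1.9). Eno3 was itself at 0.700 times the EC level in CMs, in the range of the free-RNA transcripts.

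**Figure D5:**
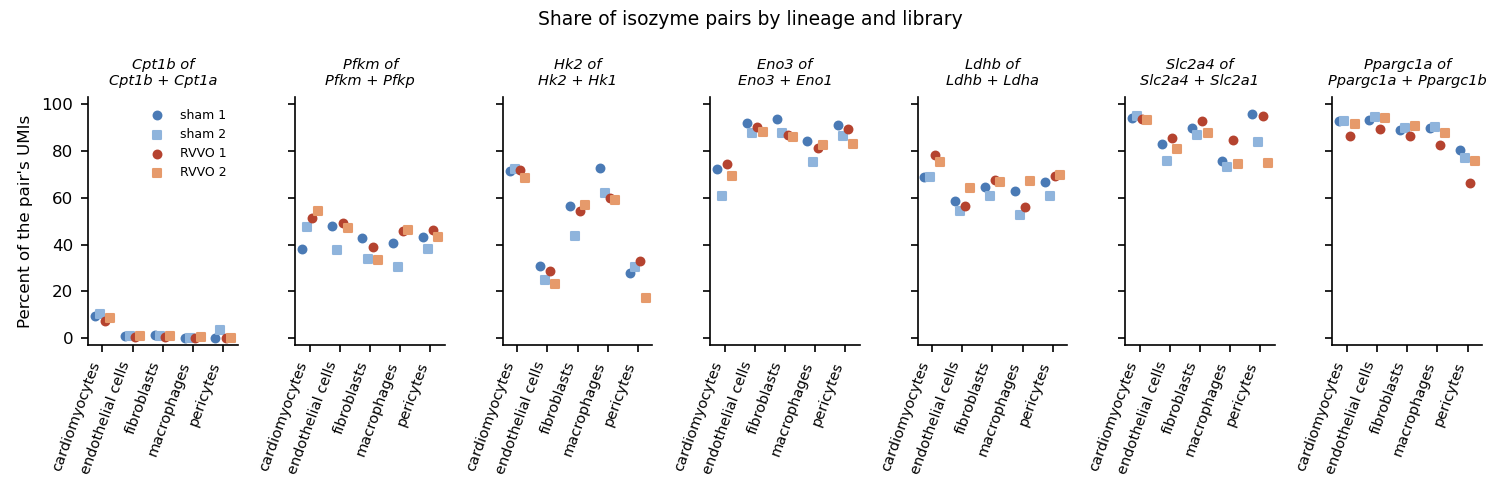
Share of the first gene in the UMIs of 7 isozyme pairs (percent) by lineage, with 1 point per library. The hexokinase pair separates CMs (71.1% Hk2 on average) from ECs (26.9%), and Cpt1b is at most 3.53% of its pair in the other lineages.

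In the other lineages no member was called by edgeR, and DESeq2 called none. The background of calls was 0.256% in ECs, 0.0928% in fibroblasts, 0.0976% in macrophages and 0.0912% in pericytes, and 0, 1, 3 and 0 members had an unadjusted p under 0.05. In the same order, 1265 of 13284, 540 of 12929, 719 of 10245 and 431 of 9868 genes had such a p.

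In ECs 42 members were tested. Both RVVO libraries were above sham in 3 (18.8% of all genes) and below in 4 (19.3%). Slc16a1 had 28.9, 27.9, 33.8 and 34.3 CPM (log2 fold change 0.26 ± 0.14), Hk1 had 68.8, 72.9, 80.3 and 79.3 CPM, and Cpt1a had 48.6, 58.0, 58.5 and 61.2 CPM. These were the 3 above sham. Below sham, Ucp3 had 10.2, 11.4, 7.75 and 8.87 CPM, Pdk4 had 185, 171, 118 and 166 CPM (-0.32 ± 0.18, and -0.10 without RVVO 1), Pfkp had 58.7, 68.6, 55.7 and 54.2 CPM, and Slc2a1 was the fourth.

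In fibroblasts 2 of 42 members were above sham (15.1% of all genes) and 6 below (16.4%). Eno1, the general form of enolase, had 16.3, 14.999, 25.3 and 28.2 CPM. Its gap between the groups was larger than that within them (log2 fold change 0.78 ± 0.20), but it was not called over all genes (adjusted p = 0.690 by edgeR). Slc16a1 had 26.4, 26.1, 32.8 and 33.1 CPM (0.33 ± 0.17). Slc2a1 (2.72, 2.83, 1.70 and 2.22 CPM), Pdk4 (183, 154, 120 and 153 CPM) and Hk1 (47.3, 53.0, 37.4 and 46.2 CPM) had the lowest fold changes of the 6 below sham.

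Macrophages had 38 of 40 tested members with a log2 fold change below 0, 10 of them with both RVVO libraries below sham (18.9% of all genes) and none above (17.5%). Their median was -0.31 for the fat and -0.30 for the glucose members, against -0.01 for all genes. These medians turned on the sham libraries, since they were 0.03 and 0.06 without sham 1 and -0.60 and -0.63 without sham 2. Ppara had 31.4, 23.2, 13.2 and 12.7 CPM (log2 fold change -1.06 ± 0.34, adjusted p = 0.530 by edgeR). Mlycd had 34.7, 29.0, 15.997 and 22.9 CPM and Pfkp had 83.4, 77.0, 50.8 and 53.5 CPM. The sum of the free-RNA transcripts in macrophages was 24565, 12554, 14955 and 15484 CPM, highest in sham 1. The part of free RNA in these values was not tested.

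In pericytes 3 of 41 members were above sham (15.8% of all genes) and 3 below (16.9%). Eno1 had 29.1, 23.2, 29.3 and 39.5 CPM, Slc16a1 32.8, 37.5, 42.7 and 49.3 CPM, and Hk1 77.4, 64.3, 87.8 and 83.9 CPM. Pdk4 had 202, 182, 133 and 169 CPM (log2 fold change -0.35 ± 0.18, and -0.18 without RVVO 1), and Pdk2 and Ucp3 were the others below sham. Without sham 1, which leaves 1 sham library, the glycolytic enzyme gene Gapdh had a log2 fold change of 0.86 in pericytes. The sum of the free-RNA transcripts there was 25305, 13463, 18787 and 19163 CPM, highest in sham 1. The part of free RNA in this value was not tested.

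Whether the difference between RVVO and sham itself differed between CMs and another lineage was tested with an interaction term. No member was called against ECs, fibroblasts, macrophages or pericytes, where 0%, 0.0264%, 0.0132% and 0% of 15174 genes were called, and 6, 4, 4 and 4 members had an unadjusted p under 0.05. No count of all genes at that p is given for these contrasts. Pdk4 was the member with the lowest p in each contrast. Its log2 fold change was higher than that in CMs by 0.94 in ECs, 0.95 in fibroblasts, 0.81 in macrophages and 0.91 in pericytes, with adjusted p of 0.139, 0.231, 0.169 and 0.591 by edgeR. The libraries are shared by all lineages of these contrasts.

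Other genes of the same pathways, which are no members, were also counted in CMs. Of 30 further fat genes 29 were tested and none was called by edgeR or DESeq2 (3 with an unadjusted p under 0.05, against 846 of 14790 genes). Both RVVO libraries were below sham in 8 and above in none, against 17.1% and 17.2% of all genes, and the median log2 fold change was -0.12. The largest of the differences without overlap were in Acss1, an acetyl-CoA synthetase of mitochondria (637, 801, 370 and 503 CPM), the triglyceride lipase gene Pnpla2 (51.0, 42.5, 23.4 and 41.1 CPM), Klf15 (56.7, 69.04, 46.6 and 40.5 CPM), a transcription factor of metabolic genes, and Acot2 (20.8, 25.8, 14.5 and 19.2 CPM).

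Of 31 further glucose genes 28 were tested in CMs, again with none called by either tool (3 with an unadjusted p under 0.05, against 846 of 14790 genes). There were 4 above sham and 5 below (17.2% and 17.1% of all genes), and the median was -0.04. Among the larger differences without overlap were those in Pfkfb4 (2.72, 1.14, 4.44 and 2.81 CPM), Pdp1 (6.52, 4.95, 8.20 and 8.73 CPM), whose product reverses the action of the kinases on pyruvate dehydrogenase, and Hif1a (412, 367, 220 and 337 CPM). In the other 4 lineages edgeR called none of either list, and 4, 0, 1 and 1 fat and 1, 1, 2 and 0 glucose genes had an unadjusted p under 0.05 in ECs, fibroblasts, macrophages and pericytes. The counts of all genes at that p are those given above for these lineages. DESeq2 called Plin2 and Pfkfb3, both in ECs, where it called 226 genes in all.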

How the data were processed

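The authors deposited 4 filtered 10x count matrices of UMI counts per gene and nucleus, which their file headers assign to Cell Ranger 5.0.0, while the submitters' processing notes name Cell Ranger 3.0.1, STAR, Seurat 3.0.2 and GRCm38. No source used here says whether introns were counted. Libraries held 51010039 to 64739206 UMIs.

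Barcodes were kept from 200 genes upward if mitochondrial UMIs stayed under 10%. The automatic Scrublet threshold marked 0 to 5 barcodes per library, so the highest-scoring 0.8% per 1000 barcodes were removed instead. Clusters (scanpy 1.11.5, Leiden resolution 1, 2000 variable genes without the members and further pathway genes) were named from marker lists, with thresholds set after the clusters had been seen.

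UMIs were summed per library and lineage and tested across libraries with edgeR 4.0.16 (TMM, filterByExpr, quasi-likelihood, Benjamini-Hochberg) in R 4.3.3, after tests on simulated data, with DESeq2 1.42.0 as an alternative. Exact two-sided permutation tests used scipy 1.17.1. In smooth muscle, epicardial, glial and adipocyte sums, in single CM clusters and over all kept nuclei, CPM used the plain total. Gene positions are those of the GENCODE vM21 annotation of GRCm38.

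Named with values are members called in any fit, those with the largest fold changes without overlap (up to 5 each way in CMs, 3 elsewhere), members that gate a step and isozyme pairs; β-oxidation subunits and the remaining genes given with values were added after their values were seen. Members and lists were chosen with earlier results of these data known. The alternatives were other normalization, filters, thinning, Ryr2 limits, doublet removal, clusters, leaving out each library, and a replicate block.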

Additional observations from a re-analysis of the deposited data

How the results depend on the processing

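Alternative fits were tallied for 46 gene and lineage pairs named by rule. Other printed pairs, such as Slc27a1 in CMs, were left out of the tally. Of 652 alternative fits, 609 kept direction and side of the threshold and 41 changed sign. The other 2 passed the threshold (Pdk4 in CMs, by DESeq2 and without the filter on low counts). Of the 46 pairs, 32 kept their sign in every fit. Of the 26 CM pairs, 12 kept their sign in every fit. Pairs in other lineages were chosen because their groups did not overlap, and no pair passed the threshold in the main fit. The tally therefore follows in part from that choice and is no measure of stability. The number of CM members called was 1 by DESeq2 and 1 without the filter. Genes called in all were 62 in CMs, 226 in ECs, 43 in fibroblasts, 25 in macrophages and 14 in pericytes by DESeq2. Without the filter they were 121 in ECs, 194 in fibroblasts, 227 in macrophages and 113 in pericytes, and in thinned ECs 110. Leaving out each library gave 4 to 6 in CMs, 7 to 301 in ECs, 8 to 142 in fibroblasts, 23 to 79 in macrophages and 5 to 100 in pericytes, with 0 to 1 pericyte members. It gave a fat median of -0.46 to -0.034 and a glucose median of -0.28 to 0.10 in CMs. The CM fat sum differed by -0.24 (log2) over the oxidation enzymes alone. With RLE normalization 4 genes were called for CMs against macrophages. The cause of these shifts was not tested.

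The sham and RVVO libraries share only replicate numbers. The correlation of deviations over the 2 pairs was 0.28 in CMs and between -0.08 and 0.02 elsewhere. With a replicate block 7 genes were called in CMs, 14 in ECs and 41 in macrophages, no member was called in any of the 5 lineages, the adjusted p of Pdk4 in CMs was 0.108 and Eno1 in CMs was at -0.023.

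With CPM over total UMIs, an alternative added after seeing the data, 29.1% of CM genes had both RVVO libraries above sham and 8.75% below, with 5 members above and 7 below, and in ECs 27.1% and 11.7%, with 4 and 1.

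In CMs these log2 fold changes changed sign. Thinned, Acsl1 was at 0.0086, Cpt1b 0.0088, Slc2a4 0.13 and Hk1 0.012. At 2% Ryr2, Cpt1b was at 0.0074, Slc2a4 0.11, Hk1 0.097, Pfkm 0.0719, Pkm 0.16 and Eno1 -0.021, and at 0.5% Acadm was at -0.077 and Eno1 at -0.015. In named CM clusters Cpt1b was at 0.10, Slc2a4 0.076, Pfkm 0.0719 and Pkm 0.092, and with the 1% limit added 0.11, 0.075, 0.081 and 0.0995. Without doublet removal Pfkm was at 0.038 and Pkm at 0.025. Leaving out each library gave -0.997 to 0.12 for Fabp3, -0.38 to 0.054 for Acsl1, -0.26 to 0.11 for Cpt1b, -0.13 to 0.15 for Acadm, -0.52 to 0.045 for Hadha, -0.38 to 0.21 for Hk1, -0.097 to 0.016 for Pfkm, -0.15 to 0.13 for Pkm, -0.10 to 0.29 for Ldhb, -0.0059 to 0.27 for Slc16a1, -0.54 to 0.20 for Ckm, -0.057 to 0.75 for Eno3 and -0.37 to 0.32 for Eno1. With 2 libraries a group, a group left with 1 library was assumed to vary like the other.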
